A study of Mus musculus with 12 samples.

Results

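Chemokines are small secreted proteins that draw leukocytes along a gradient, and their receptors are G protein-coupled receptors on the membrane of the cells that respond. Ligands and receptors are named by the spacing of conserved cysteines (CC, CXC, CX3C and XC), and many ligands bind several receptors. In the lung, epithelial cells, fibroblasts and macrophages make ligands for neutrophils and monocytes, while the receptor transcripts come largely from the leukocytes that carry them.

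The genes described here are all genes whose symbol is a chemokine or chemokine receptor family name followed by a number (Ccl, Cxcl, Cx3cl, Xcl, Ccr, Cxcr, Cx3cr or Xcr), without Cxcl15 and Cxcr2. They numbered 50 of the 21950 genes in the table of whole lung, 33 ligands and 17 receptors. In the table of vesicles 15 of 8096 genes met the rule, all 15 of them ligands and 0 of them receptors. The mice were adult C57BL/6, and RNA was sequenced from their whole lungs and from the extracellular vesicles (membrane particles that cells shed) of lung mesenchymal cells kept in culture for 48 hours. Each source had 2 libraries labelled ColcreER; Tbx4flox/flox and 4 labelled wild type, which makes 12 libraries in 4 groups. ColcreER names a Cre recombinase switched on by tamoxifen with a Col driver, and Tbx4 is a T-box transcription factor of the lung mesenchyme. The labels do not say which Col promoter drives it, whether or when tamoxifen was given, or whether any animals were pooled. The design text of the series names a different cross, Tbx4creER with floxed Ghr, so the libraries are called mutant-labelled here.

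Values are RPKM, reads per kilobase of exon per M (megaread) counted in genes, and in each sentence they run from replicate 1 upward. Gene-assigned reads came to 42.7 to 44.8 M per lung library. Vesicle libraries were shallower, at 1.75 and 1.68 M reads for the mutant-labelled and 4.20 to 5.40 M for the wild type. Tbx4 stood at 20.9 and 36.8 RPKM in the mutant-labelled pair and at 29.7, 26.1, 29.0 and 30.1 RPKM in wild-type lungs, so its level did not separate the groups, and it was not listed for vesicles. Replicate lungs ranked their genes alike, with Spearman correlations across genes of 0.986 to 0.993 within a group, against 0.399 between the mutant-labelled vesicle libraries and 0.605 to 0.687 among the wild-type ones. Mutant-labelled vesicle library 1 had 22.2% of listed genes at 0, against 7.07% to 9.77% in the other vesicle libraries. Dcn, a collagen-binding proteoglycan of fibroblasts, was at 0.55 RPKM in that library and at 164 to 357 RPKM in the other 5. The Y-linked genes Ddx3y and Eif2s3y stood at 10.9 to 52.6 RPKM in wild-type libraries 1 and 2 of both sources and at 0.143 RPKM or less in all others, so sex was not balanced between the groups. Nothing in the labels says that replicates came from separate animals or cultures, and p-values measure only the spread between these libraries.

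Among the 50 genes, 3 ligands had the highest levels in whole lung. Cxcl14, a ligand made by epithelial cells and fibroblasts, stood at 86.1 ± 19.0 RPKM (SD, n = 2) in mutant-labelled and 93.1 ± 8.12 RPKM (SD, n = 4) in wild-type lungs. Cxcl12, the ligand of Cxcr4 that retains and recruits leukocytes and progenitors, stood at 52.4 ± 4.16 and 37.5 ± 7.34 RPKM (SD). Ccl6, a mouse CC ligand of macrophages and neutrophils, had the highest mean of all 50, 136 RPKM in mutant-labelled and 119 RPKM in wild-type lungs, with the widest spread between libraries in absolute RPKM. By the larger of the group means, 11 genes reached 10 RPKM, 35 reached 1 RPKM and 15 stayed below 1 RPKM. Ccl26, an eosinophil attractant, was at 0 in every lung library. Ligand values summed to 325 to 605 RPKM per lung library and receptor values to 69.1 to 118 RPKM.

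**Figure D1:**
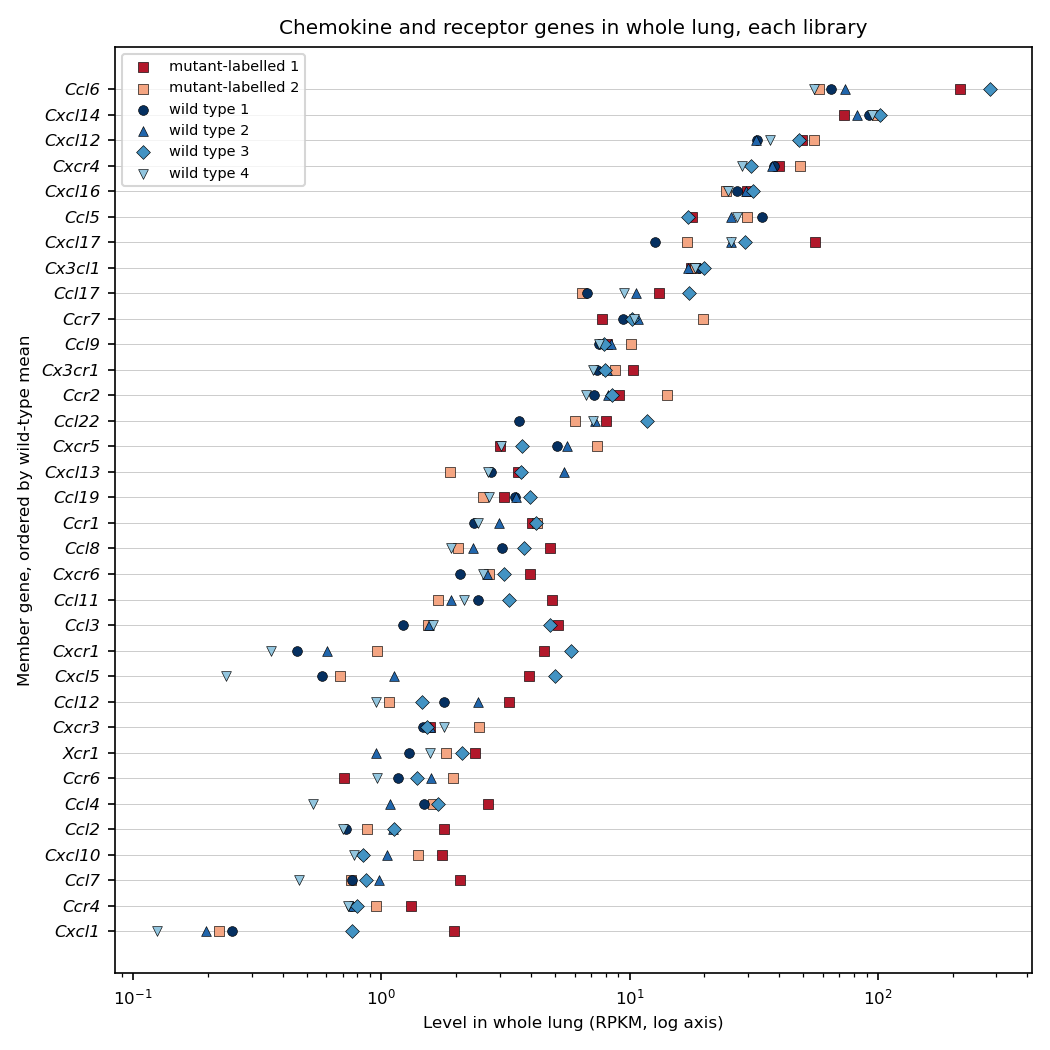
Levels in whole lung (RPKM, log axis) of genes that reached 1 RPKM in a group mean, ordered by wild-type mean, with 1 point per library (squares, mutant-labelled; other shapes, wild type). Ccl6, Cxcl14 and Cxcl12 lead, Cxcr4 is the highest receptor, and the 2 high points of Ccl6 belong to mutant-labelled library 1 and wild-type library 3.

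Of the 50 genes, 32 passed the filter on low values in lung (at least 1 RPKM in at least 2 libraries) and were compared between the groups on log2(RPKM + 1). None passed the threshold of 0.05 with limma and Benjamini-Hochberg adjustment, against 0.0% of the 13701 genes tested, and their smallest adjusted p was 0.994. At an unadjusted p under 0.05 stood 5 of the 32, Cxcl10, Cx3cr1, Ccr2, Cxcl12 and Cxcr4, all with higher values in mutant-labelled lungs, which is 15.6% against 2.54% of all tested genes in that direction, 1.21% in the lower direction and 3.75% in either. In either direction that count became 9 without mutant-labelled library 2, where Ccr7 and Cxcl14 were lower and the other 7 higher. It was 8 without wild-type library 3, all higher, and 2 with only wild-type libraries 3 and 4, which like the mutant-labelled lungs had the Y-linked genes near 0. In 6 of the 32 both mutant-labelled libraries lay above all 4 wild-type libraries, against 7.5% of all tested genes, and in 0 did they lie below, against 4.12%. The log2 difference was above 0 for 24 of the 32, against 55.7% of all tested genes, and its median was 0.26 against 0.01. The 18 genes not tested were Ccl1, Ccl7, Ccl20, Ccl24, Ccl25, Ccl26, Ccl28, Cxcl1, Cxcl2, Cxcl3, Cxcl9, Cxcl11, Xcl1, Ccr3, Ccr4, Ccr8, Ccr9 and Ccr10. The counts describe genes that share cell sources and passed a filter on level, and a difference in whole lung cannot tell a change in cell number from a change in RNA per cell.

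**Figure D2:**
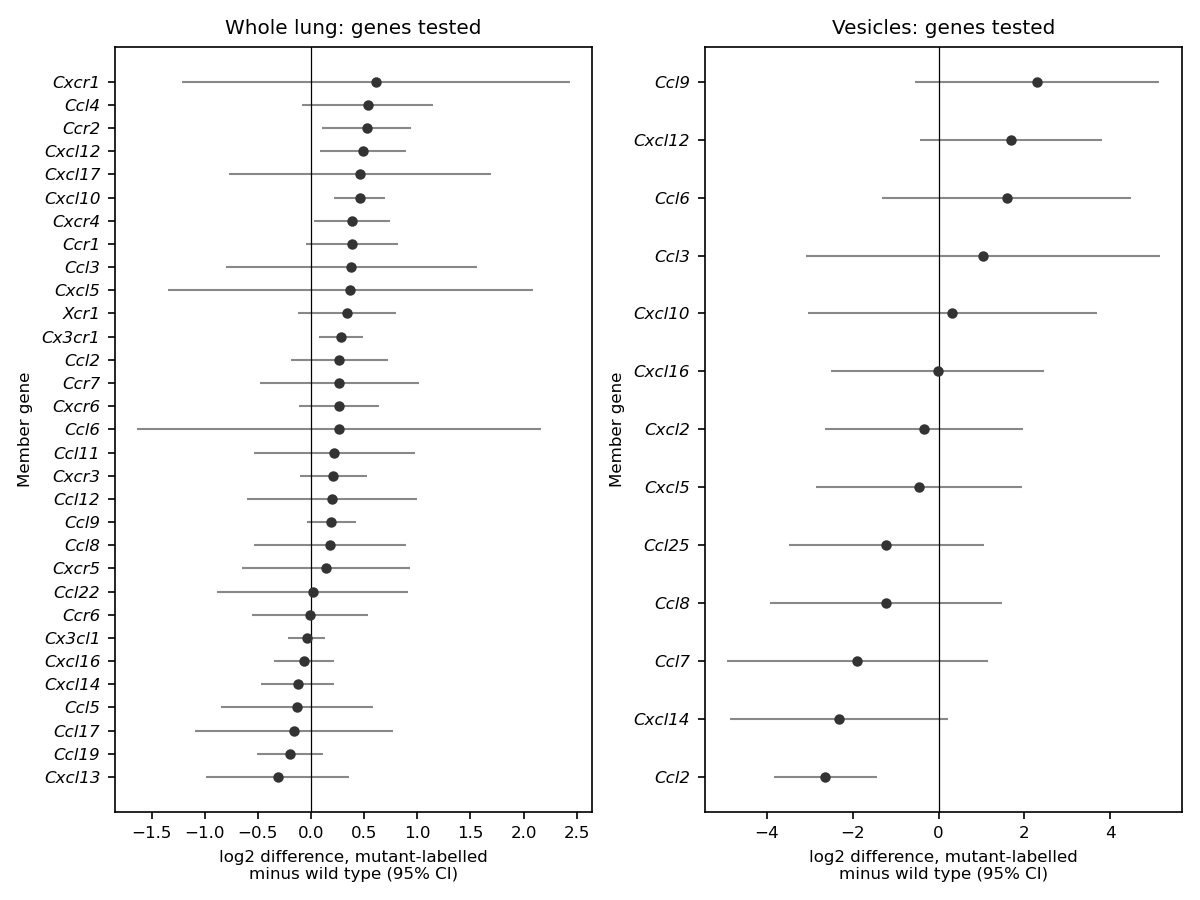
Difference of log2(RPKM + 1), mutant-labelled minus wild type, for the tested genes shown in lung (left) and vesicles (right), where points are estimates and lines limma's 95% confidence intervals. In lung most points lie right of 0, mostly with intervals across it, and in vesicles the interval of Ccl2 (-3.83 to -1.45) alone lies wholly left of 0.

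Differences above 0 were found in 11 of the 12 receptors tested (median 0.28) and in 13 of the 20 ligands tested (median 0.19). Cxcr4, the receptor of Cxcl12 on neutrophils, lymphocytes and endothelium, was the highest receptor at 39.8 and 48.8 RPKM in mutant-labelled and 38.1, 37.5, 30.9 and 28.4 RPKM in wild-type lungs. Its groups did not overlap, though mutant-labelled library 1 exceeded wild-type library 1 by little, and the log2 difference was 0.39 (SE 0.15, limma adjusted p = 0.994). For Cxcl12 itself the libraries gave 49.5 and 55.3 RPKM against 32.7, 32.3, 48.1 and 36.7 RPKM. The ligand thus stood higher in both mutant-labelled lungs than in any wild-type lung, with wild-type library 3 close to the mutant-labelled range, and a log2 difference of 0.49 (SE 0.17, limma adjusted p = 0.994). Ackr3, the atypical receptor that binds Cxcl12 and clears it, stood at 11.7 and 12.7 RPKM against 10.5, 10.4, 9.61 and 11.0 RPKM and also did not overlap (log2 difference 0.22, limma adjusted p = 0.994).

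Ccr2, the receptor that brings inflammatory monocytes out of the blood, stood at 9.10 and 14.2 RPKM in the mutant-labelled pair. The wild-type lungs had 7.16, 8.19, 8.48 and 6.69 RPKM, so that mutant-labelled library 2 stood apart and library 1 lay just above the wild-type range. Its log2 difference was 0.53 (SE 0.17, limma adjusted p = 0.994). Cx3cr1, the receptor of patrolling monocytes and interstitial macrophages, stood at 10.3 and 8.77 RPKM against 7.38, 8.12, 7.96 and 7.14 RPKM. Here library 1 was the higher of the mutant-labelled pair, and the log2 difference was 0.29 (SE 0.09, limma adjusted p = 0.994). Its only ligand among these genes, the membrane-tethered Cx3cl1, varied little, from 17.2 to 19.9 RPKM over all 6 lungs, with a log2 difference of -0.04.

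Ccr1, a receptor of neutrophils and monocytes, gave 4.04 and 4.24 RPKM against 2.37, 2.98, 4.19 and 2.44 RPKM. Wild-type library 3 lay inside the mutant-labelled range (log2 difference 0.39, SE 0.18, limma adjusted p = 0.994). Xcr1, carried by the dendritic cells that cross-present antigen, had 2.38 and 1.82 RPKM against 1.29, 0.951, 2.11 and 1.57 RPKM. Cxcr6, found on tissue-resident T cells, had 3.98 and 2.72 RPKM against 2.07, 2.67, 3.12 and 2.56 RPKM. Both overlapped between the groups. Cxcr3, the receptor of the interferon-induced ligands on effector T cells, had 1.57 and 2.48 RPKM against 1.47, 1.57, 1.52 and 1.79 RPKM, where mutant-labelled library 2 alone was high. Ccr4 and Ccr10, receptors of skin- and lung-homing T cells that were too low to be tested, also did not overlap. Ccr4 had 1.32 and 0.948 RPKM against 0.735 to 0.801 RPKM, from 114 reads or more against 100 or fewer.

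Of the marker lists for blood-derived cells, the neutrophil list alone held genes without overlap between the groups in lung. Of 10 neutrophil markers, 9 had both mutant-labelled lungs above all wild-type lungs, against 7.5% of all tested genes. None of the 10 passed limma with adjustment, and their smallest adjusted p was 0.364, for Retnlg and Ly6g. The summed level of the 10 was 470 and 946 RPKM against 118 to 237 RPKM. Macrophage markers without Lyz2 summed to 197 and 147 RPKM against 112 to 203 RPKM, and 0 of their 9 listed genes separated the groups. Neutrophil markers were highest in mutant-labelled library 2, as were Cxcr4 and Ccr2, while Cx3cr1, Xcr1, Cxcr6 and Ccr4 were higher in library 1. The part of these cells in the receptor values was not tested. The lymphocyte receptors differed between the mutant-labelled lungs. Ccr7, which leads dendritic cells and naive T cells to lymph nodes, stood at 7.73 and 19.8 RPKM, below and above the wild-type range of 9.41 to 10.8 RPKM. Cxcr5, the follicle-homing receptor of B cells, stood at 2.99 and 7.38 RPKM against 3.03 to 5.57 RPKM. Ccr6, of B cells and IL-17-producing T cells, stood at 0.71 and 1.94 RPKM against 0.965 to 1.59 RPKM. All 3 were lowest in mutant-labelled library 1 and highest in library 2. B-cell markers summed to 58.7 and 135 RPKM in the same libraries against 95.4 to 143 RPKM, and T and natural killer markers to 52.5 and 106 RPKM against 45.7 to 96.0 RPKM. The part of these cells in the values was not tested.

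**Figure D3:**
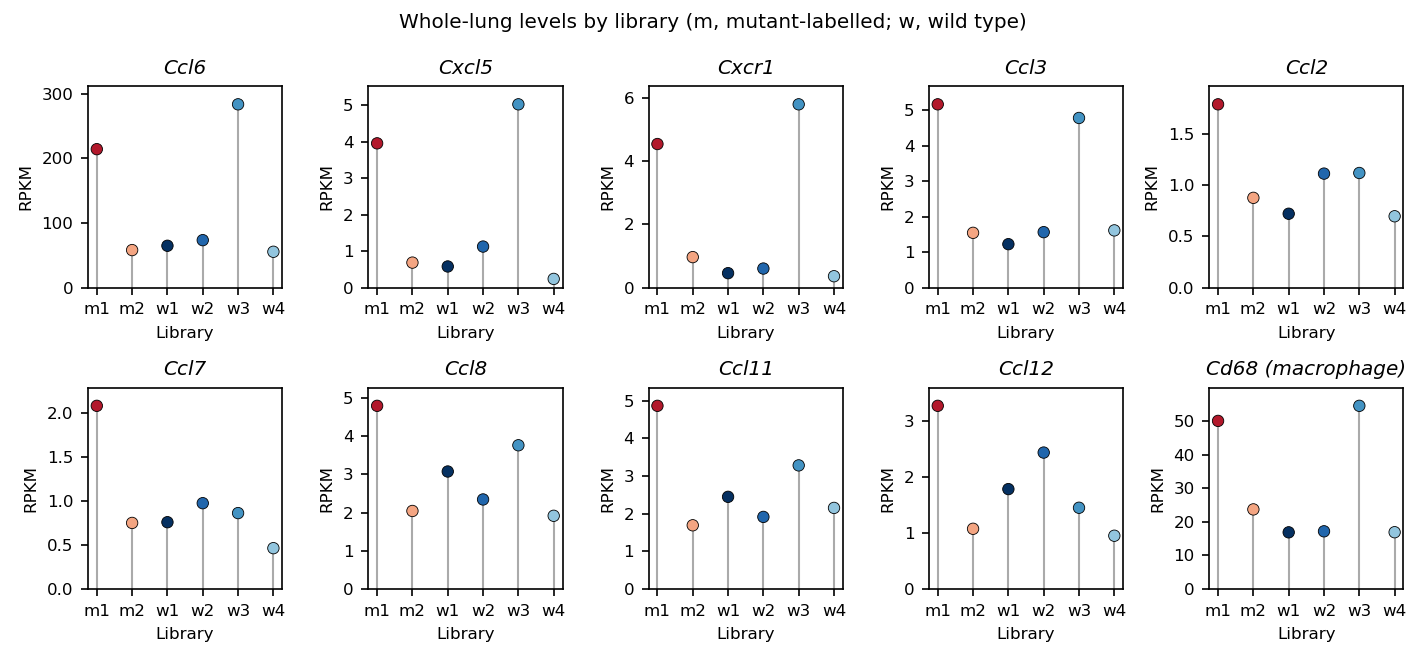
Levels in each lung (RPKM, axes from 0) of 9 genes and of the macrophage marker Cd68, with 1 point per library (m, mutant-labelled; w, wild type). Mutant-labelled library 1 and wild-type library 3 stand out for Ccl6, Cxcl5, Cxcr1, Ccl3 and Cd68, and mutant-labelled library 1 alone leads for Ccl2, Ccl7, Ccl8, Ccl11 and Ccl12.

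The interferon-induced ligands of Cxcr3 were low in lung. Cxcl10, the ligand most readily induced by interferon and by NF-kB, stood at 1.76 and 1.40 RPKM in mutant-labelled and at 0.84, 1.05, 0.841 and 0.773 RPKM in wild-type lungs. Both mutant-labelled libraries lay above all wild-type ones, and its log2 difference of 0.46 (SE 0.10, 95% confidence interval 0.22 to 0.70) had the smallest limma p of the 50 genes. It ranked 34 of the 13701 and gave an adjusted p of 0.994. The gene passed the filter through both mutant-labelled libraries and wild-type library 2. Cxcl9, induced chiefly by interferon gamma, did not pass the filter and overlapped, at 0.94 and 0.837 RPKM against 0.61 to 1.02 RPKM. Cxcl11 stayed at or below 0.101 RPKM in every lung. Irf1, a transcription factor induced by interferon, stood at 25.2 and 25.1 RPKM against 21.7, 21.6, 19.9 and 17.8 RPKM (limma adjusted p = 0.994).

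The ligands that attract neutrophils through the CXC receptors were high in single libraries. Cxcl5, made by alveolar epithelium, stood at 3.95 and 0.684 RPKM in the mutant-labelled pair and at 0.578, 1.12, 5.02 and 0.238 RPKM in wild-type lungs. Mutant-labelled library 1 and wild-type library 3 thus stood above the other 4, across the labels (log2 difference 0.37, SE 0.71, limma adjusted p = 0.994). Cxcl1, Cxcl2 and Cxcl3, induced in many cells by IL-1 and TNF, did not pass the filter. Cxcl1 stood at 1.95 RPKM in mutant-labelled library 1, from 80 reads, at 0.763 RPKM in wild-type library 3, and at 0.124 to 0.25 RPKM in the other 4. Cxcl2 followed the same order at its top, with 0.94 RPKM in mutant-labelled library 1 and 0.432 RPKM in wild-type library 3. Cxcl3 was highest in mutant-labelled library 1 as well, at 0.405 RPKM, close to the 0.368 RPKM of wild-type library 1.

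The promoters of these 3 neighbours and of Cxcl10 are shown because all 4 are known NF-kB target genes and carry matching letters near the start. Each runs from 250 bases before to 50 bases after the RefSeq transcript start on GRCm38.p6, 5′ to 3′ along the gene. Of the 50 genes, 35 had an entry. The capitals mark matches to an NF-kB-like motif (GGGA, any 2 bases, then TTCC, searched on both strands) and, in Cxcl10, also to an interferon response element-like motif (GAAA, any 2 bases, then GAAA, both strands). In Cxcl1, Cxcl2 and Cxcl3 matches on the plus and minus strand overlap by all but 1 base, so that 11 letters are in capitals.
Cxcl1 promoter, chr5:90890995-90891294, plus strand: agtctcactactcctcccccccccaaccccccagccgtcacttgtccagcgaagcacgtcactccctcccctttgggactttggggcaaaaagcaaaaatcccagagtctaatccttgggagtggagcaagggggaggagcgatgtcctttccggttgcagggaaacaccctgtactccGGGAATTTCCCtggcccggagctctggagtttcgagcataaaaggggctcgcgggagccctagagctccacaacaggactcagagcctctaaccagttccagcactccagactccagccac
Cxcl2 promoter, chr5:90903649-90903948, plus strand: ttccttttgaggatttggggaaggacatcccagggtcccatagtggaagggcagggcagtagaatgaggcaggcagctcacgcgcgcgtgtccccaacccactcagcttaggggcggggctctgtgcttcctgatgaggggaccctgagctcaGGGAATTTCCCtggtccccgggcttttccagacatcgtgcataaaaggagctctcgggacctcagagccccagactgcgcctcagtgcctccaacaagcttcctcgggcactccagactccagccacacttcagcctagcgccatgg
Cxcl3 promoter, chr5:90785851-90786150, plus strand: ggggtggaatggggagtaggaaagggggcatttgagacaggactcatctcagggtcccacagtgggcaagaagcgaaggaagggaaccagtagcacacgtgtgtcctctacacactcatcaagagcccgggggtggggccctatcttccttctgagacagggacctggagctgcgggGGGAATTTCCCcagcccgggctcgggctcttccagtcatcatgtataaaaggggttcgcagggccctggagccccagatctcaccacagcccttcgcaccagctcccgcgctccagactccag
Cxcl10 promoter, chr5:92348840-92349139, minus strand: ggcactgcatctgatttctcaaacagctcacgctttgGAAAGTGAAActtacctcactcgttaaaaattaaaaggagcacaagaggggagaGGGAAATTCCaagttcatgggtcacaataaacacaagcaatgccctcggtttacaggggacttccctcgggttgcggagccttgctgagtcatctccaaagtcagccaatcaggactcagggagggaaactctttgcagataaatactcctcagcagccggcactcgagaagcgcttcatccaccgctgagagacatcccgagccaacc
The NF-kB-like letters begin 71, 97 and 73 bases before the start in Cxcl1, Cxcl2 and Cxcl3 and 159 bases before it in Cxcl10, where the interferon-like letters begin 213 bases before the start. The NF-kB-like letters occurred in 1.47% of the 32851 mouse promoters of this length and in 6 of the 35 genes, the other 2 being Ccl1 and Ccr3. The interferon-like letters occurred in 3.44% of promoters and in 3 of the 35 genes, Cxcl10, Cxcl14 and Ccl19. A match describes the letters only. The 4 genes with the sequences above were all highest in mutant-labelled library 1 but differed in the lung that came next. That was mutant-labelled library 2 for Cxcl10, wild-type library 3 for Cxcl1 and Cxcl2, and wild-type library 1 for Cxcl3.

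Among the inflammatory CC ligands of macrophages, single lungs differed widely. Ccl6 stood at 214 and 58.1 RPKM in mutant-labelled and at 64.7, 73.4, 284 and 55.4 RPKM in wild-type lungs. Mutant-labelled library 1 and wild-type library 3 were again the high ones, and the groups overlapped (log2 difference 0.26, SE 0.79, limma adjusted p = 0.994). In those libraries Ccl6 made up 40.3% and 46.9% of the summed level of the 33 ligands described here and was the highest of them. In the other 4 it made up 16.8% to 21.6%, and Cxcl14 was the highest of the 33. Ccl3, a macrophage product that binds Ccr1, gave 5.16 and 1.54 RPKM against 1.22, 1.56, 4.78 and 1.61 RPKM. Cxcr1, a receptor for neutrophil attractants, gave 4.54 and 0.963 RPKM against 0.456, 0.602, 5.79 and 0.359 RPKM. Of the 9 macrophage markers listed, Cd68, Mrc1, Marco, C1qa, C1qb and Lyz2 were likewise highest in those libraries. Cd68 stood at 50.03 and 23.7 RPKM against 16.9, 17.2, 54.5 and 16.9 RPKM. Adgre1 was highest in wild-type library 3, at 6.82 RPKM, followed by mutant-labelled library 2, at 6.61 RPKM. Csf1r was highest in mutant-labelled library 2, at 34.5 RPKM. Siglecf, a marker of alveolar macrophages and eosinophils, was lowest in mutant-labelled library 1 and wild-type library 3. It stood at 0.719 and 1.76 RPKM against 2.07, 1.56, 1.09 and 1.66 RPKM. Neutrophil markers were not highest in those libraries, since they summed to 946 RPKM in mutant-labelled library 2, where Cxcr1 and Ccl6 were low. The part of macrophages in Ccl6, Ccl3, Cxcl5 and Cxcr1 was not tested.

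Ccl9, the chromosome 11 neighbour of Ccl6 and a close relative in the mouse, did not follow it in lung. It stood at 8.12 and 10.2 RPKM against 7.55, 8.39, 7.87 and 7.54 RPKM (log2 difference 0.19, limma adjusted p = 0.994). On mm9 Ccl9 lies at chr11:83386421-83392138 and Ccl6 at chr11:83401384-83406589, both on the minus strand. Their promoters on GRCm38.p6 are shown because the genes lie side by side and differed in how they varied. The capitals mark the longest stretch they share, 13 bases.
Ccl6 promoter, chr11:83593038-83593337, minus strand: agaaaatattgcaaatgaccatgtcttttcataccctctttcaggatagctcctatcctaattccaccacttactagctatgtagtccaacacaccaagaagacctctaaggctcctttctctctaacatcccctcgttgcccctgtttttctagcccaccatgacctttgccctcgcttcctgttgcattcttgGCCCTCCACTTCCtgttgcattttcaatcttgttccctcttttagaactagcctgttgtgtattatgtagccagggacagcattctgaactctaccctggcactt
Ccl9 promoter, chr11:83578587-83578886, minus strand: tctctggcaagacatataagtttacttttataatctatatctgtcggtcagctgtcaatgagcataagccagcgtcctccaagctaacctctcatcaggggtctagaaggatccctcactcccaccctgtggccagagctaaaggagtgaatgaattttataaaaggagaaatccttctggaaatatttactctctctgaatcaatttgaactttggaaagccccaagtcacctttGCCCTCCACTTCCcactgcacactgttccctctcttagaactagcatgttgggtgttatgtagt
The shared stretch begins 55 bases before the start of Ccl6 and 14 bases before that of Ccl9. Neither promoter held the NF-kB-like or the interferon-like letters. Ccl4, which lies nearby on chromosome 11 and is made by activated macrophages and T cells, stood at 2.70 and 1.61 RPKM against 1.49, 1.08, 1.69 and 0.529 RPKM (log2 difference 0.53, SE 0.26, limma adjusted p = 0.994). Mutant-labelled library 1 was the only one above 2 RPKM. Ccl5, made by T and natural killer cells, ran the other way, at 17.9 and 29.6 RPKM against 34.2, 25.6, 17.1 and 27.1 RPKM. Its lowest values fell in mutant-labelled library 1 and wild-type library 3, which also had the lowest summed T and natural killer markers, at 52.5 and 45.7 RPKM. Cd3e, Cd3g, Cd8a, Nkg7, Klrb1c, Gzma and Ncr1 were each lowest in those libraries, but Cd3d and Cd4 were not. Cd4 stood there at 2.89 and 3.03 RPKM, above the 2.12, 1.91 and 2.48 RPKM of wild-type libraries 1, 2 and 4. The part of these cells in Ccl5 was not tested.

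The ligands of Ccr2 form a row on chromosome 11, from Ccl2 at chr11:81849073-81850955 through Ccl7 and Ccl12 to Ccl8 at chr11:81928687-81930301 on mm9, with the eosinophil attractant Ccl11 among them. In lung all 5 were low and were highest in mutant-labelled library 1. Ccl2, the main monocyte attractant of stromal cells, stood at 1.79 and 0.878 RPKM against 0.722, 1.11, 1.12 and 0.698 RPKM. Ccl7 stood at 2.08 and 0.752 RPKM against 0.465 to 0.976 RPKM. Ccl8 stood at 4.79 and 2.04 RPKM against 1.91 to 3.76 RPKM. For Ccl12 the values were 3.28 and 1.08 RPKM against 0.954 to 2.44 RPKM, and for Ccl11 4.86 and 1.69 RPKM against 1.91 to 3.28 RPKM. In each case mutant-labelled library 2 lay inside or below the wild-type range. Mutant-labelled library 1 was the highest lung for 12 of the 32 tested genes, 37.5% against 25.4% of all tested genes. Wild-type library 3 was the highest for 9, 28.1% against 12.9% of all tested genes.

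The remaining ligands overlapped between the groups. Cxcl16, the ligand of Cxcr6, stood at 27.0 ± 3.68 and 28.2 ± 2.78 RPKM (SD, n = 2 and 4). Cxcl17, a mucosal ligand of airway epithelium, was at 55.8 and 17.0 RPKM in the mutant-labelled pair against 12.7, 25.7, 29.1 and 25.6 RPKM, with mutant-labelled library 1 alone high. Epithelial markers also summed highest in that lung, at 96883 RPKM against 54120 to 73519 RPKM in the other 5, and their part in Cxcl17 was not tested. Ccl17 and Ccl22, dendritic-cell ligands of Ccr4, were highest in wild-type library 3, at 17.4 and 11.7 RPKM. Their ranges over the other 5 lungs were 6.41 to 13.1 and 3.60 to 8.05 RPKM. The lymphoid-tissue ligands Cxcl13 and Ccl19 averaged 2.73 and 2.83 RPKM in mutant-labelled and 3.63 and 3.41 RPKM in wild-type lungs. Reads of Ccl19 may be shared with near-identical mouse copies, so its level is uncertain.

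For vesicles from cultured mesenchymal cells fewer of these genes were listed. The 15 listed genes were Ccl2, Ccl3, Ccl4, Ccl6, Ccl7, Ccl8, Ccl9, Ccl20, Ccl25, Cxcl2, Cxcl5, Cxcl10, Cxcl12, Cxcl14 and Cxcl16, and the other 35, receptors included, were not listed. Each gene listed for vesicles reached at least 2.003 RPKM in the larger of the group means. Absence from that list does not show absence from vesicles. Of the 15, 4 were above 0 in all 6 libraries, Ccl2, Ccl6, Ccl9 and Cxcl12. A gene at 0 in mutant-labelled library 1 is weakly bounded, since 3 reads there were worth 2.15 RPKM for Ccl7 and 2.24 RPKM for Ccl3. That library had 10 of the 15 at 0, against 2 to 4 in the other 5.

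**Figure D4:**
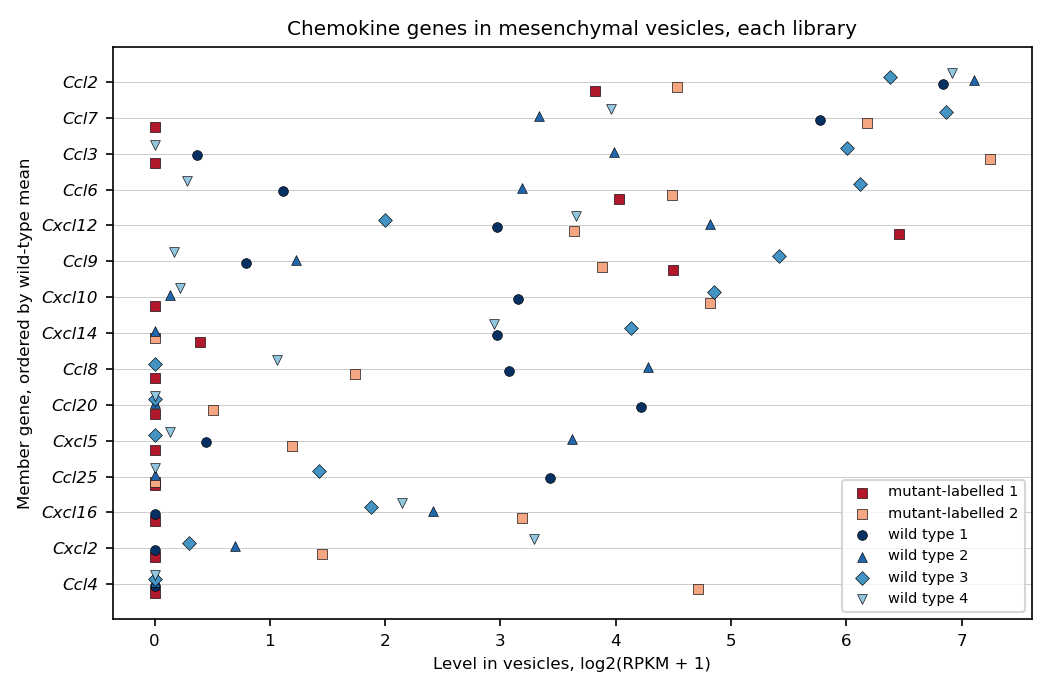
Levels of the 15 listed ligands in vesicles, as log2(RPKM + 1), ordered by wild-type mean, with 1 point per library (squares, mutant-labelled; other shapes, wild type). Among the 13 tested, Ccl2 is the single ligand whose squares both lie below all wild-type points.

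Ccl2 led the vesicle ligands of wild-type cultures and was lower in both mutant-labelled libraries. It stood at 113, 137, 82.2 and 120.0 RPKM in wild-type vesicles, from 392 to 736 reads, and at 13.1 and 22.1 RPKM in mutant-labelled vesicles, from 26 and 42 reads. No mutant-labelled value came near the wild-type range. On the log2(RPKM + 1) scale the difference was -2.64 (SE 0.55, 95% confidence interval -3.83 to -1.45), and its limma p ranked 9 of 7615 genes. The adjusted p was 0.243, so the difference did not pass the threshold. With mutant-labelled library 1 left out it was -2.28 (adjusted p = 0.539). With mutant-labelled library 2 left out, where the lone library 1 is assumed to vary like the others, Ccl2 at -2.99 and Ccl7 at -4.98 passed limma with adjusted p of 0.0162 and 0.0337, among 377 genes called. In wild-type vesicles Ccl2 made up 50.1%, 59.0%, 19.4% and 71.9% of the summed ligand level, and in mutant-labelled ones 9.57% and 6.17%.

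Of the 15 listed genes 13 passed the filter in vesicles. With limma 0 of the 13 passed after adjustment, against 0.0% of 7615 genes. At an unadjusted p under 0.05 stood 1, Ccl2, which is 7.69% against 10.3% of all tested genes in either direction, 5.23% in the higher and 5.03% in the lower. In either direction the count was 2 without mutant-labelled library 1 or wild-type library 2, and 3 without mutant-labelled library 2 or wild-type library 3. Without overlap and lower stood 1, Ccl2 again, against 9.94% of all tested genes, and without overlap and higher stood 0, against 9.88%. The log2 difference was above 0 for 5 of 13, against 46.0% of all tested genes, with a median of -0.35 against -0.14. The counts over the 13 ligands thus lay near those over all genes.

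The other ligands of Ccr2 varied widely within groups. Ccl7 stood at 0 and 71.5 RPKM in mutant-labelled and 53.8, 9.10, 116 and 14.5 RPKM in wild-type vesicles, so mutant-labelled library 2 lay within the wild-type range and library 1 below it. Ccl8 stood at 0 and 2.33 RPKM against 7.43, 18.5, 0 and 1.09 RPKM. In mutant-labelled library 2 Ccl7 was thus high where Ccl2 was low, and in wild-type library 3 Ccl7 was the top ligand. Dcn was near 0 in mutant-labelled library 1 but at 311 RPKM in library 2, within the wild-type range, where Ccl2 was low too. The fibroblast markers listed, 6 of 8, summed to 66.0 and 413 RPKM against 217 to 434 RPKM. Dcn made up most of the sum in every library but mutant-labelled library 1. In that library Col1a1, Pdgfra and Lum were also at their lowest. Col3a1, at 12.8 RPKM, lay within the wild-type range there, and Col1a2, at 35.8 RPKM, was at its highest. The part of the fibroblast markers in the values of Ccl2 was not tested.

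The inflammatory CC ligands followed single libraries. Ccl3 stood at 0 and 151 RPKM against 0.291, 14.8, 63.1 and 0 RPKM, and was the top ligand of mutant-labelled library 2. Ccl4 was at 25.3 RPKM in that same library, from 28 reads, and at 0 in the other 5. Ccl6 stood at 15.3 and 21.5 RPKM against 1.17, 8.09, 68.6 and 0.215 RPKM. Ccl9 stood at 21.6 and 13.7 RPKM against 0.733, 1.34, 41.6 and 0.122 RPKM (log2 difference 2.29, limma adjusted p = 0.541). In wild-type vesicles Ccl3, Ccl6 and Ccl9 were all highest in library 3, where Ccl6 was also high in lung, and were all low in libraries 1 and 4. Both mutant-labelled libraries lay between those levels for Ccl6 and Ccl9. The labels do not say whether lung and vesicle libraries of the same number came from the same animal.

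Macrophage markers varied over the same libraries. The markers listed for vesicles, 6 of 10, summed without Lyz2 to 495 and 263 RPKM in mutant-labelled and to 0.315, 181, 263 and 10.4 RPKM in wild-type vesicles. Cd68 stood at 275 and 203 RPKM against 0.18, 105, 101 and 9.56 RPKM, and Lyz2 at 4369 and 3191 RPKM against 140, 2415, 1977 and 20.6 RPKM. For 2 of the 6 markers, Cd68 and Lyz2, the mutant-labelled libraries lay above all wild-type ones, against 9.88% of all tested genes. Neither passed the threshold (limma adjusted p = 0.482 and 0.485). Wild-type libraries 1 and 4, with the lowest macrophage sums, also had the lowest Ccl6 and Ccl9. Ccl3 and Ccl4 were both at 0 in mutant-labelled library 1, which had the highest macrophage sum. A 0 there is weakly bounded, since 3 reads were worth 2.24 RPKM for Ccl3. In the other libraries Ccl3 was lowest in wild-type libraries 1 and 4 and highest in mutant-labelled library 2. In wild-type vesicles Ccl2 was highest in library 2, with a macrophage sum of 181 RPKM, and lowest in library 3, with 263 RPKM. Over all vesicle libraries Ccl2 was lowest in both mutant-labelled libraries and wild-type library 3, which had the highest macrophage sums. Of the single markers only Adgre1 was highest in those libraries. Cd68, Mrc1 and Lyz2 were higher in wild-type library 2 than in library 3. Csf1r stood at 5.04 and 6.72 RPKM in mutant-labelled vesicles against 15.5 RPKM in wild-type library 2. C1qb stood at 21.4 RPKM in mutant-labelled library 2 against 45.9 RPKM in wild-type library 2. The part of these cells in the vesicle values was not tested. Of the neutrophil markers 2 of 10 were listed, and both overlapped between the groups. Mmp8 stood at 0 and 48.6 RPKM against 17.9 to 74.9 RPKM, and S100a8 at 0 and 7.74 RPKM against 0 to 18.5 RPKM. Markers of T and natural killer, B, dendritic, endothelial, epithelial and erythroid cells were not listed.

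**Figure D5:**
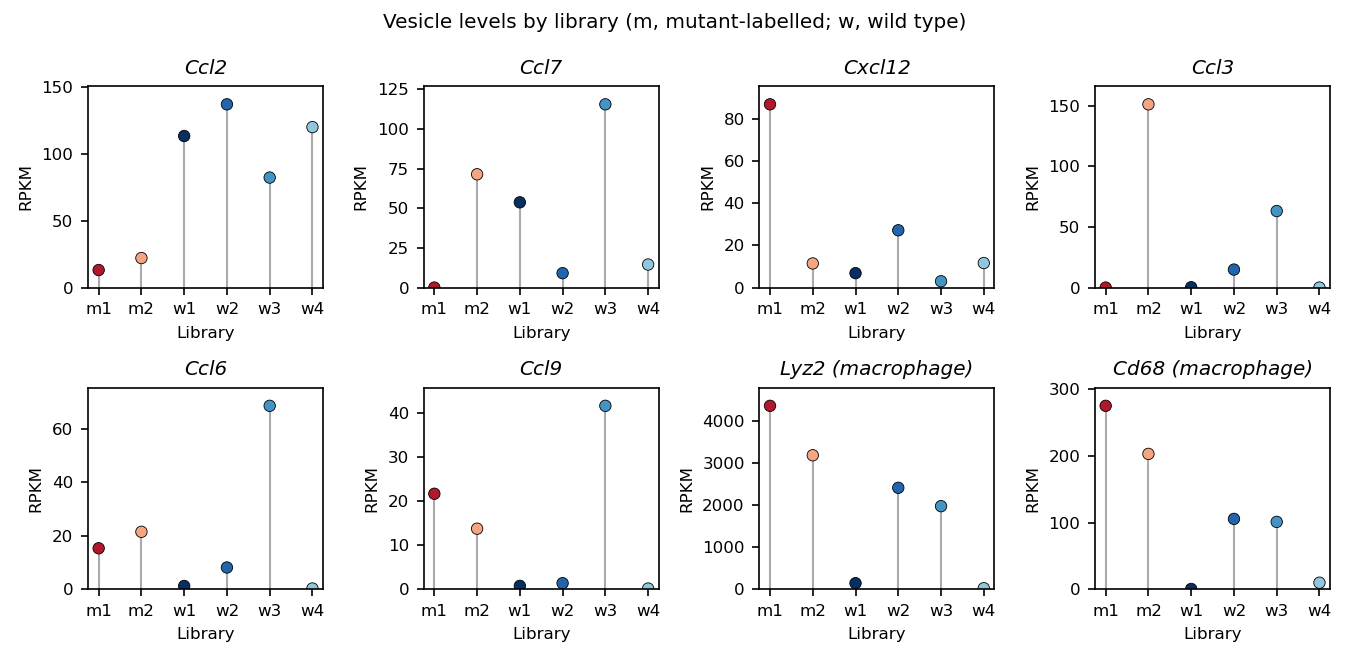
Levels in each vesicle library (RPKM, axes from 0) of 6 ligands and of the macrophage markers Lyz2 and Cd68, with 1 point per library (m, mutant-labelled; w, wild type). Ccl2 is low in both mutant-labelled libraries, while Ccl6, Ccl9, Lyz2 and Cd68 are low in wild-type libraries 1 and 4.

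Among CXC ligands, Cxcl12 stood at 86.8 and 11.4 RPKM in mutant-labelled and at 6.84, 27.2, 2.99 and 11.6 RPKM in wild-type vesicles. It was the top ligand of mutant-labelled library 1, at 63.3% of the summed ligand level, while library 2 lay inside the wild-type range (log2 difference 1.69, limma adjusted p = 0.546). Cxcl14 stood at 0.314 and 0 RPKM against 6.86, 0, 16.6 and 6.70 RPKM, and overlapped through wild-type library 2 (log2 difference -2.32, limma adjusted p = 0.502). Cxcl10 stood at 0 and 27.3 RPKM against 7.91, 0.0962, 27.9 and 0.166 RPKM, so it did not repeat the order seen in lung. Cxcl16 stood at 0 and 8.10 RPKM against 0, 4.33, 2.68 and 3.43 RPKM. The remaining 4 were high in single libraries. Cxcl5 reached 11.3 RPKM in wild-type library 2, Cxcl2 8.77 RPKM in wild-type library 4, Ccl20 17.6 RPKM in wild-type library 1 and Ccl25 9.79 RPKM in the same library. Their values elsewhere were at most 1.28, 1.73, 0.42 and 1.70 RPKM.

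Lung and vesicle tables were normalized separately, so levels were compared only by rank within each library over the 8096 genes in both. These are all the genes listed for vesicles, chosen by their vesicle level, so many genes low in lung are left out of the lung ranks. In wild-type libraries the median percentile of Ccl2 was 3.79 in lung, while in vesicles its percentiles lay between 93.5 and 96.5. In mutant-labelled vesicles it was 70.0 and 79.4. Ccl7 moved likewise, from 3.32 in lung to 81.8 in wild-type vesicles. Over all 21950 genes listed for lung, the wild-type means of Ccl2 and Ccl7 lay higher, at percentiles 37.9 and 36.8. By wild-type medians in lung and in vesicles, ligands that led whole lung ranked lower in vesicles: Cxcl14 stood at 95.4 and 57.8, Ccl6 at 93.0 and 44.5, Cxcl12 at 83.8 and 63.9 and Cxcl16 at 79.4 and 39.1. Single wild-type libraries overlapped for Ccl6 (90.9 to 98.8 in lung, 14.2 to 92.5 in vesicles) and Cxcl12 (82.3 to 89.0 and 37.6 to 84.4). In mutant-labelled libraries Cxcl12 stood at 89.5 and 90.5 in lung and at 66.3 and 93.8 in vesicles, lowest value first. Whole lung holds many cell types and the vesicles came from cultured cells, so tissue, culture and vesicle cannot be told apart as sources of these ranks. No test was made between the tables or between their genotype differences.

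Of 59 other names in the chemokine pathway (platelet and lymphoid ligands outside the naming rule, atypical receptors, signalling proteins, proteases that cut chemokines, and inducers), 50 were tested in lung. With limma 0 passed after adjustment, 5 had an unadjusted p under 0.05 with higher values in mutant-labelled lungs and 0 with lower, against 2.54% and 1.21% of all tested genes, and the median log2 difference was 0.07 against 0.01. Beside Ackr3 and Irf1, these were Il1b, Mmp9 and Rgs2. Il1b, a cytokine that induces many chemokines, stood at 5.94 and 10.5 RPKM against 3.50, 3.84, 4.88 and 2.22 RPKM (log2 difference 0.99). Mmp9, a neutrophil protease that trims chemokines and one of the neutrophil markers above, stood at 5.85 and 12.5 RPKM against 2.95 to 4.57 RPKM (log2 difference 1.03). Rgs2, which dampens G protein signals, stood at 20.3 and 22.3 RPKM against 14.0 to 17.4 RPKM (log2 difference 0.39). All 5 had a limma adjusted p of 0.994 and groups that did not overlap, a pattern held in the higher direction by 7.5% of all tested genes.

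In vesicles 27 of the 59 were tested and 0 passed limma with adjustment. At an unadjusted p under 0.05 stood 1 with higher and 1 with lower values, against 5.23% and 5.03% of all tested genes. Rgs1, a leukocyte regulator of G protein signals, had higher values in mutant-labelled vesicles, at 97.9 and 6.94 RPKM against 1.15, 6.68, 9.21 and 0.0317 RPKM (limma adjusted p = 0.485). Its high value came from mutant-labelled library 1 alone. Zfp36, which speeds the decay of chemokine and cytokine messages, had lower values, at 1.28 and 6.32 RPKM against 11.3, 57.7, 18.6 and 6.09 RPKM (limma adjusted p = 0.485). Both overlapped between the groups. Gnai2 lay higher without overlap, at 77.3 and 75.5 RPKM against 29.9 to 56.1 RPKM (limma adjusted p = 0.573). Stat6 lay lower without overlap, at 0.137 and 0 RPKM against 0.793 to 7.51 RPKM (limma adjusted p = 0.514). Such patterns were held by 9.88% and 9.94% of all tested genes.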

How the data were processed

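Per the submitters' processing notes, reads were aligned to the mouse build mm9 with TopHat2 and counted with HTSeq. The strand setting, annotation and tool versions used are not stated there. The authors deposited 1 table for lung and 1 for vesicles, with 12 value columns tied to libraries and 0 others. The deposited values were read as RPKM. The headers name no unit, but multiplied by GENCODE M1 exon lengths, low values fell on whole multiples (within 0.02) of 1 step in each column for 68.1% to 69.4% of lung and 50.3% to 54.5% of vesicle genes. That step gave the depths and, where it fitted, reads per gene. Near-identical copies, overlapping genes and antisense partners could share reads.

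The genotype groups of a table were compared by limma-trend (R 4.3.3, limma 3.58.1) on log2(RPKM + 1), a scale that understates changes of low genes. Testing took in genes at 1 RPKM or more in at least 2 libraries, Benjamini-Hochberg adjustment over all of those and a threshold of 0.05. The fit was tested on simulated data. No libraries of a group were duplicates. Floors of 3 reads cover counting error only. Named genes were those of smallest p (12 in lung, 8 in vesicles), the 8 highest in each table, every listed vesicle gene, and the others by role. The genes and lists were chosen with earlier results of these data known. Alternatives covered the pseudocount, the filter, the scaling, array weights, a replicate block, fewer wild-type libraries and leaving out each library. Promoter sequences are from RefSeq (GRCm38.p6). The result for 1 gene counted in the totals is not reported here.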

Additional observations from a re-analysis of the deposited data

Results flagged for a closer look

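Of 50 gene-by-group sets of 4 wild-type values, 8 had 1 library standing apart from the other 3 by the gap relative to the range. The nominal chance rate of this criterion is about 1 in 20 sets. Its rate over all genes was not measured, so 8 of 50 cannot be read as an excess over chance. In lung all 3 sets that met it had wild-type library 3 apart, where Ccl6 reached 284 RPKM, Cxcr1 5.79 RPKM and Ccl3 4.78 RPKM. In vesicles the same replicate number was high for Ccl6, at 68.6 RPKM, and Ccl9, at 41.6 RPKM. The others were Cxcl2 at 8.77 RPKM in wild-type library 4, Cxcl5 at 11.3 RPKM in library 2 and Ccl20 at 17.6 RPKM in library 1. The mutant-labelled groups, with 2 libraries each, could not be examined this way.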

How the results depend on the processing

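With 2 mutant-labelled libraries per source, 1 library can set a value, and the vesicle libraries add shallow depth. No gene was called in lung except 1 with no filter, and 0 of the 50 were among those called in lung under any alternative run. Lung genes of the family at an unadjusted p under 0.05 numbered 5, against 3 with array weights, 2 with only wild-type libraries 3 and 4, and 4 to 9 when 1 library was left out (9 without mutant-labelled library 2, of which 2 lower, 8 without wild-type library 3). The replicate block kept that number at 5, of which 2, Cxcl12 and Ccr2, were among the original 5; Cxcl10 was no longer among them. In vesicles, leaving out 1 library gave 0 to 377 called genes, 0 to 2 called ligands and 1 to 3 ligands at an unadjusted p under 0.05. That last count was 2 with the replicate block (Ccl2 and Ccl9) and 2 with only wild-type libraries 3 and 4. Deviations of same-numbered libraries from their group means correlated at -0.48 and 0.05 in lung and at -0.05 and -0.12 in vesicles. With 2 mutant-labelled libraries their deviations mirror each other, so these values cannot show whether replicate numbers pair the samples. Ccl2 in vesicles stayed lower throughout, from -2.28 to -2.99, with an adjusted p of 0.0162 to 0.995.

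Of 245 alternative log2 differences in lung 236 kept direction and side of the threshold and 9 reversed. With only wild-type libraries 3 and 4, Ccl6 was -0.17 and Ccl5 0.090. Leaving out 1 library reversed Ccl6 (-0.67 to 1.19), Cxcl14 (-0.35 to 0.10), Ccl5 (-0.48 to 0.22), Cxcl17 (-0.37 to 1.29), Cxcr3 (-0.0080 to 0.43) and Cxcl16 (-0.20 to 0.069). Of 170 in vesicles 151 kept both, 17 reversed and 2 passed the threshold. Cxcl10 was -0.16 with a pseudocount of 0.1 and -0.13 with only wild-type libraries 3 and 4, where Ccl8 was 0.34. Cxcl16 was 0.051 with array weights and 0.39 with the replicate block, under which Cxcl2 was 0.38. Leaving out 1 library reversed Ccl7 (-4.98 to 1.20), Cxcl5 (-0.80 to 0.14), Cxcl2 (-0.70 to 0.38), Cxcl16 (-1.61 to 1.57), Ccl3 (-2.59 to 4.66) and Cxcl10 (-2.09 to 2.73). The cause of these reversals was not tested.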
